A study of Homo sapiens with 24 samples.

Results

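NRF2, the product of NFE2L2, is a transcription factor that is degraded through KEAP1 and CUL3 in unstressed cells. Under oxidants or electrophiles it escapes degradation, pairs with a small MAF protein (MAFF, MAFG or MAFK) and binds antioxidant response elements, short DNA sites near genes for thioredoxin and glutathione chemistry, quinone reduction, heme breakdown and NADPH supply. BACH1 competes for the same sites. The genes described here were NFE2L2 itself and 9 widely used NRF2 targets, TXNRD1, NQO1, HMOX1, GCLM, GCLC, SRXN1, SLC7A11, OSGIN1 and ME1. They were taken by symbol and were selected on measured values, because the glucose response of these same samples was known when the set was drawn up. All 10 symbols were found. SRXN1 stood under 2 gene IDs, so the set filled 11 of the 18889 rows of the normalized table, and all 11 rows passed the filter on low values in every line.

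The study asked how diabetes and hyperglycemia alter breast cancer, in xenografts, patient tumors and cell lines. The samples described here are of its 3 ER+ lines, derived from breast carcinomas. HCC1500, ZR-75-30 (written ZR7530 in the labels) and MDA-MB-175 cells were kept for 48 hours in low glucose (LG, 5 mM) or high glucose (HG, 25 mM). The labels name no genetic change in any line. Each of the 6 groups held 4 cultures, 24 in all, grown in T25 flasks. Per the study's methods the medium was free of serum and the cells had first been kept in low glucose, conditions that LG and HG shared. The labels do not say whether the 4 cultures of a group were set up independently, so the p-values below measure the spread between these samples, which may be technical. No osmotic control was among the samples analysed here, and 25 mM glucose and its added osmolarity cannot be told apart.

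Values are normalised read counts as deposited, which are whole reads scaled by a factor specific to the sample. Libraries held from 9140024 to 17998819 such reads, and in HCC1500 the LG range (13190982 to 17998819) lay above the HG range (9423472 to 12140912). The lines carried luminal breast markers, with ESR1 between 255 and 3962 in all 24 samples. PGR was at most 4.25 in MDA-MB-175 cells and ZR-75-30. The 7 markers of other cell types that were matched summed to between 116 and 265 per sample, against 24823 to 58041 for the 8 luminal markers. Some markers moved with glucose. In ZR-75-30 cells 5 of 8 luminal markers were called lower and 1 higher, where 22.7% and 23.4% of all tested genes were. The luminal sum there was 48986 to 53631 at LG and 34885 to 40749 at HG. CD68, a macrophage marker, rose there from 5.66 ± 1.06 to 37.7 ± 4.36 (SD, n = 4, limma adjusted p = 1.3e-08). The 7 markers of other cell types, CD68 included, summed to between 116 and 135 at LG and between 122 and 144 at HG. CD68 shares 1765 of its 2163 exon bases with genes on its strand, so its reads are uncertain. In MDA-MB-175 cells 1 luminal marker was called higher and 3 lower, and CD68 and CDH5 were called higher and VWF lower. Of all tested genes there, 11.9% were called higher and 13.7% lower. No marker of either kind was called in HCC1500 with all samples. Without HG replicate 3, 4 of 8 luminal markers were called higher and 4 lower, or 4 and 3 after rescaling the rest by median of ratios. CD68, at means of 0.943 and 2.82, was then called higher and COL1A1 lower. The shares over all tested genes were 20.9% and 37.7%, or 28.7% and 28.2% rescaled. The part of these markers in the results was not tested. In HCC1500, HG replicate 3 stood apart from the other HG cultures along gene length, so values without it are given beside the HCC1500 results it touches.

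The promoters of the set were read from RefSeq windows (GRCh38.p14) that run from 250 bases before to 50 bases after a transcription start. Windows were matched for 8 of the 10 symbols, 10 windows in all. HMOX1 and SLC7A11 had none. The core of the antioxidant response element, searched as TGACNNNGC and as its reverse complement GCNNNGTCA, occurred in 4 of the 10 windows, which belonged to TXNRD1 (both of its windows), GCLM and ME1. It occurred in 13.3% of all 35116 windows. The 250 bases before the start are printed below 5′ to 3′ on the gene's strand, with the core in capitals, because these genes hold the motif close to their starts while their glucose responses differed.
TXNRD1, upstream start, chr12:104215529-104215778, plus strand: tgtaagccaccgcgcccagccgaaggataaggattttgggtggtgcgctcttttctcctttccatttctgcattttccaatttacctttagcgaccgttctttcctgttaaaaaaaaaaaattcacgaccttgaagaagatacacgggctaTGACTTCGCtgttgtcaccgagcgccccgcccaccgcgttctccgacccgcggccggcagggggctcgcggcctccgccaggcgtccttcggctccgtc
TXNRD1, downstream start, chr12:104286782-104287031, plus strand: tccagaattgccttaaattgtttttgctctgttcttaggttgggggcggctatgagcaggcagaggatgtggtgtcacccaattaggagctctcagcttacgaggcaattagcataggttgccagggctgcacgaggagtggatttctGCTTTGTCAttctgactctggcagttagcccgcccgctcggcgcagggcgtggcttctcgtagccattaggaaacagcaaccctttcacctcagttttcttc
GCLM, chr1:93909431-93909680, minus strand: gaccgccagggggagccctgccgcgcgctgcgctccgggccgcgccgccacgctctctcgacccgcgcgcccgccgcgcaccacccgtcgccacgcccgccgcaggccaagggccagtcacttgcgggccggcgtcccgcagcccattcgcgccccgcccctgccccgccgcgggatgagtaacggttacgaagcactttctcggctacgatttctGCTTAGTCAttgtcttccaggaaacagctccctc
ME1, chr6:83431052-83431301, minus strand: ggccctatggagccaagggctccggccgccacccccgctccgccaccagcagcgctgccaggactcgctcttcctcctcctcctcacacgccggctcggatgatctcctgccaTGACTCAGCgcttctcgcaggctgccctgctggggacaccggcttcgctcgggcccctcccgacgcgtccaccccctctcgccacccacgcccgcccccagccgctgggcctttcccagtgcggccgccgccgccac

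The core began 99 bases before the upstream TXNRD1 start and 102 bases before the downstream start, 34 bases before the GCLM start and 137 bases before the ME1 start. A further match began 8 bases before the upstream TXNRD1 start, and another lay just after the ME1 start. No match was found in the NQO1, GCLC, SRXN1, OSGIN1 or NFE2L2 windows, which says only that these letters are not in those windows.

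Of the 11 rows, 10 were called higher at HG in MDA-MB-175 cells, 5 in ZR-75-30 cells and 5 in HCC1500, and 2 were called lower, both in ZR-75-30 cells. A call is an adjusted p under 0.05 over all tested genes in limma's fit of log2(value + 1). Of all tested genes, 11.9% were called higher and 13.7% lower in MDA-MB-175 cells, 23.4% and 22.7% in ZR-75-30 cells, and 7.46% and 13.0% in HCC1500. Since these contrasts chose the set, the calls are a description and nothing is read from their number. The median change of the 11 rows was 0.58 log2 units in MDA-MB-175 cells, 0.12 in ZR-75-30 cells and 0.29 in HCC1500, against -0.02, 0.01 and -0.06 over all tested genes. Without HG replicate 3, 7 rows were called higher and 1 lower in HCC1500, where 20.9% and 37.7% of tested genes were called, and the median change was 0.26 against -0.12 over all genes. The rows called higher in all 3 lines were 4, those of TXNRD1, HMOX1, GCLM and OSGIN1.

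**Figure D1:**
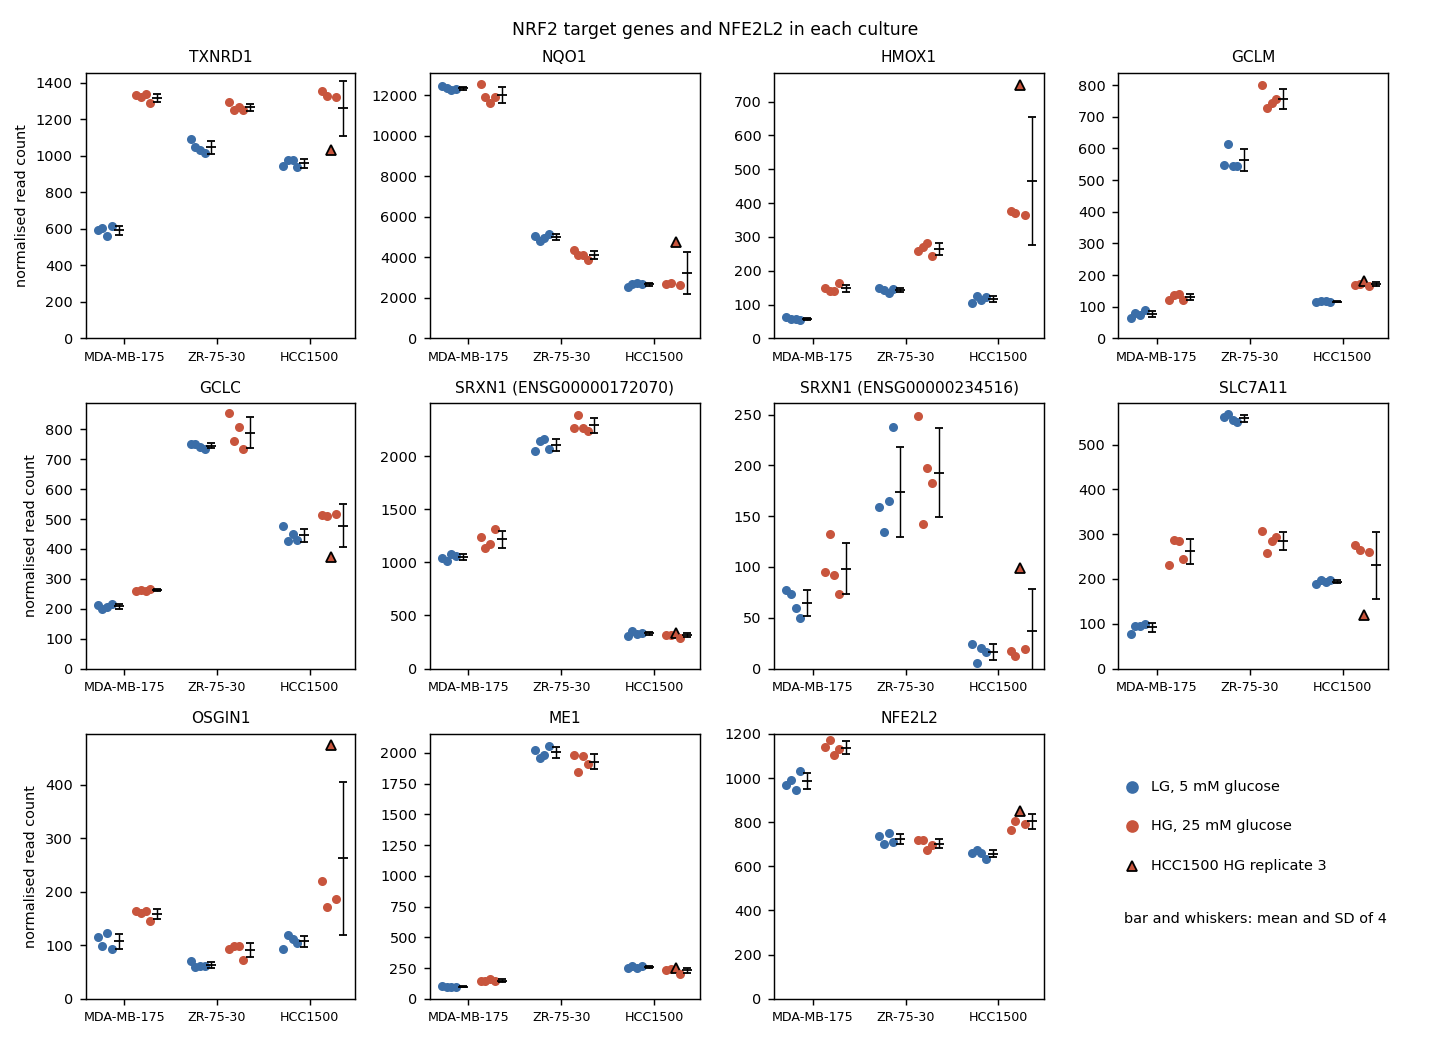
Normalised read count (y axis, linear from 0, 1 panel per table row) in each of the 24 cultures by cell line (x axis), LG in blue and HG in red, with the mean and SD of 4 beside each group and HCC1500 HG replicate 3 as an outlined triangle. TXNRD1 sits between 1034 and 1352 in all HG cultures, and SLC7A11 rises in MDA-MB-175 and falls in ZR-75-30.

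TXNRD1 encodes the cytosolic thioredoxin reductase, a selenoprotein that uses NADPH to keep thioredoxin reduced. The gene (ENSG00000198431) lies on the plus strand of chromosome 12, 104609557 to 104744085 in GRCh37. In MDA-MB-175 its normalised read counts in replicates 1 to 4 were 594, 602, 559 and 613 at LG and 1330, 1319, 1336 and 1288 at HG. The HG cultures stood at more than 2 times the LG level and the groups did not overlap. The mean went from 592 ± 23.6 to 1318 ± 21.4 (SD, n = 4), a log2 change of 1.15 ± 0.04 (SE), and the call held under every alternative run for this line.

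The TXNRD1 increase was smaller in the other lines. In ZR-75-30 it measured 1092, 1049, 1029 and 1014 at LG and 1292, 1248, 1267 and 1253 at HG, with no overlap and a log2 change of 0.27 ± 0.04 (SE). The HCC1500 cultures measured 941, 975, 979 and 936 at LG and 1352, 1329, 1034 and 1320 at HG. Replicate 3 was the lowest HG culture and, as deposited, still lay above every LG culture. Its column total was 7319781, against 5559394 to 5604083 in the other HG cultures and 5639413 to 5716906 at LG. That placement therefore depends on the deposited scale. The change was 0.39 ± 0.10 with replicate 3 and 0.48 ± 0.03 without it, and with replicate 3 present the call was lost after rescaling to CPM or by median of ratios, with edgeR, and without any other culture of the line. The highest line mean was, on the deposited scale, 1.77 times the lowest at LG and 1.05 times at HG. The increase was largest in the line with the lowest LG level. Column totals at HG ran from 6157549 to 6339651 in MDA-MB-175 cells and from 7272253 to 7594840 in ZR-75-30 cells. Ratios between lines therefore depend on that scale.

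SLC7A11, the light chain of the cystine/glutamate antiporter that supplies cysteine for glutathione, changed in opposite directions between lines. The gene (ENSG00000151012, chromosome 4, 139085251 to 139163503, minus strand, GRCh37) measured 76.7, 95.8, 95.1 and 99.7 at LG and 231, 286, 284 and 246 at HG in MDA-MB-175 cells, a log2 change of 1.5 ± 0.09 (SE). This was the largest rise of the set in that line. In ZR-75-30 it measured 562, 568, 554 and 551 at LG and 307, 259, 284 and 293 at HG, a change of -0.97 ± 0.05, so that every HG culture lay below every LG culture. The values in HCC1500 were 189, 197, 193 and 198 at LG and 277, 265, 120 and 261.3 at HG. The other 3 HG cultures were above all LG cultures and replicate 3 was below them. The change was 0.17 ± 0.25, not called, with replicate 3 and 0.46 ± 0.05, called, without it. At LG the highest line mean of SLC7A11 was 6.09 times the lowest, and at HG 1.24 times (1.09 without replicate 3), both on the deposited scale. SLC7A11 shares 865 exon bases with an antisense gene, and no source used here states whether counting used strand.

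HMOX1 encodes the inducible heme oxygenase, which opens the heme ring and releases iron and carbon monoxide. This gene (ENSG00000100292, chromosome 22, 35776354 to 35790207, plus strand, GRCh37) had the largest rise of the set in ZR-75-30 cells and HCC1500. It measured 61.8, 56.3, 55.8 and 54.4 at LG and 149, 140, 139 and 163 at HG in MDA-MB-175 cells. The groups did not overlap, and the log2 change was 1.36 ± 0.09 (SE). In ZR-75-30 it measured 148, 142, 133 and 147 at LG and 259, 270, 283 and 244 at HG, a change of 0.88 ± 0.07. HCC1500 cultures had 105, 124, 113 and 122 at LG and 376, 372, 749 and 365 at HG. Replicate 3 lay far above the other HG cultures, which were close to each other. The change was 1.93 ± 0.23 with replicate 3 and 1.67 ± 0.06 without it, and HMOX1 was called in either case.

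NQO1, the quinone reductase often used as the marker of NRF2 activity, was called higher in no line on the deposited scale, and in MDA-MB-175 cells it was the 1 row of the 11 that was not called. Its gene (ENSG00000181019) is on the minus strand of chromosome 16, 69740899 to 69760571 in GRCh37. It measured 12442, 12327, 12257 and 12288 at LG and 12559, 11913, 11617 and 11909 at HG in MDA-MB-175 cells, overlapping groups with a log2 change of -0.04 ± 0.04 (SE). In ZR-75-30 it measured 5049, 4797, 4973 and 5156 at LG and 4361, 4132, 4101 and 3858 at HG, all HG cultures lower, a change of -0.28 ± 0.04. The HCC1500 values were 2551, 2694, 2754 and 2666 at LG and 2700, 2732, 4753 and 2616 at HG. The other 3 HG cultures fell within the LG range and replicate 3 lay far above it. The change in HCC1500 was 0.22 ± 0.18 with replicate 3 and 0.01 ± 0.03 without it, neither called. NQO1 shares 575 exon bases with a gene on the opposite strand.

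GCLM and GCLC are the modifier and catalytic subunits of glutamate-cysteine ligase, the enzyme that starts glutathione synthesis. GCLM (ENSG00000023909, chromosome 1, 94350755 to 94375012, minus strand, GRCh37) rose from 76.7 ± 10.1 at LG to 130 ± 9.39 at HG (SD, n = 4) in MDA-MB-175 cells, from 563 ± 34.5 to 757 ± 31.5 in ZR-75-30 cells and from 116 ± 2.56 to 171 ± 6.59 in HCC1500. Its log2 changes were 0.76 ± 0.10, 0.43 ± 0.05 and 0.56 ± 0.08 (SE), without overlap in any line, and 0.53 ± 0.06 in HCC1500 without replicate 3. GCLM was the member least moved by that culture, which read 180 against 165 to 171. GCLC (ENSG00000001084, chromosome 6, 53362139 to 53481768, minus strand, GRCh37) went from 208 ± 8.23 to 262 ± 3.4 in MDA-MB-175 cells, a change of 0.33 ± 0.06. In ZR-75-30 its groups overlapped (734 to 751 at LG, 734 to 854 at HG) and the change was 0.08 ± 0.05, called (0.12) only without HG replicate 4. In HCC1500 the GCLC change was 0.09 ± 0.12, and 0.21 ± 0.04 and called without replicate 3, which read 372 against 510 to 518. Per kilobase of transcript, GCLC stood at 3.54 ± 0.513 times GCLM at LG and 2.61 ± 0.196 times at HG in MDA-MB-175 cells (SD, n = 4). That ratio went from 1.71 ± 0.0908 to 1.35 ± 0.0659 in ZR-75-30 cells and from 4.95 ± 0.286 to 3.62 ± 0.647 in HCC1500, or 3.94 ± 0.103 (SD, n = 3) at HG without replicate 3. GCLC shares 529 bases of its exons with a neighbour transcribed in its direction and 305 with antisense genes.

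OSGIN1, an oxidative stress-induced growth inhibitor, was called higher in all 3 lines. The gene (ENSG00000140961, chromosome 16, 83964916 to 83999937, plus strand, GRCh37) measured 116, 97.8, 123 and 92.6 at LG and 164, 161, 165 and 145 at HG in MDA-MB-175 cells, a log2 change of 0.57 ± 0.09 (SE). It ranged from 58.6 to 71.5 at LG and from 72.7 to 99.5 at HG in ZR-75-30 cells, a change of 0.52 ± 0.12. The margin between the groups was narrow there. HCC1500 had 93.9, 119, 113 and 104 at LG and 220, 171, 475 and 186 at HG, a change of 1.16 ± 0.29 with replicate 3 and 0.83 ± 0.09 without it. With replicate 3 present, its call in HCC1500 was lost when any LG culture was left out. OSGIN1 shares 457 bases of its exons with MLYCD, which has its orientation.

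SRXN1, the sulfiredoxin that restores overoxidized peroxiredoxins, had a well-read row and a weak one. The annotation used here (GENCODE release 44, GRCh37) holds SRXN1 on the minus strand of chromosome 20, 627259 to 633844, under another ID than either row, and 2292 of its exon bases are shared with another gene on that strand, so reads may be split between copies and both rows are uncertain. ENSG00000172070 went from 1047 ± 28.5 to 1217 ± 78 in MDA-MB-175 cells and from 2105 ± 55.4 to 2290 ± 69.5 in ZR-75-30 cells (SD, n = 4), log2 changes of 0.21 ± 0.05 and 0.12 ± 0.04 (SE) with no overlap. The ZR-75-30 call was lost after rescaling to CPM (0.08). In HCC1500 it measured 331 ± 17.4 at LG and 317 ± 18.8 at HG, overlapping, a change of -0.06 with replicate 3 and -0.09 without it. ENSG00000234516 was noisier, down to 17 reads in an HCC1500 LG culture. It was called only in MDA-MB-175 cells, where its groups overlapped (49.9 to 77.1 at LG, 73.1 to 133 at HG) and the call was lost without HG replicate 2. Its change in HCC1500 was 0.77 ± 0.66 with replicate 3 and 0.13 ± 0.34 without it, neither called.

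ME1, the cytosolic malic enzyme that yields NADPH, was called higher only in MDA-MB-175 cells. It lies on the minus strand of chromosome 6, 83920121 to 84140770 in GRCh37 (ENSG00000065833). It measured 101, 97.2, 96.2 and 97.2 at LG and 146, 145, 161 and 142 at HG in that line, a log2 change of 0.59 ± 0.07 (SE). In ZR-75-30, where it was far more abundant, LG ran from 1958 to 2058 and HG from 1847 to 1986, and the change of -0.06 ± 0.04 was not called, though it was after rescaling to CPM (-0.09). In HCC1500 the highest HG culture, at 251.7, lay just below the lowest LG culture, at 252.0. Its change there was -0.17 ± 0.09, not called, with replicate 3 and -0.21 ± 0.06, called, without it.

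NFE2L2 itself had log2 changes of at most 0.29. Its gene (ENSG00000116044) is on the minus strand of chromosome 2, 178083395 to 178257484 in GRCh37, and shares 2037 exon bases with genes on its strand and 3710 with genes on the opposite strand. NFE2L2 measured 970, 990, 946 and 1033 at LG and 1140, 1174, 1103 and 1131 at HG in MDA-MB-175 cells, a log2 change of 0.21 ± 0.04 (SE) without overlap. In ZR-75-30 the groups overlapped (703 to 750 at LG, 676 to 718 at HG) and the change was -0.05 ± 0.04. In HCC1500 it measured 662, 674, 662 and 633 at LG and 766, 807, 850 and 790 at HG, a change of 0.29 ± 0.07 with replicate 3 and 0.26 ± 0.04 without it. The HCC1500 call was lost after rescaling to CPM and without any single LG culture, HG replicate 2 or HG replicate 4. NRF2 is regulated mainly as a protein, which these libraries do not measure.

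**Figure D2:**
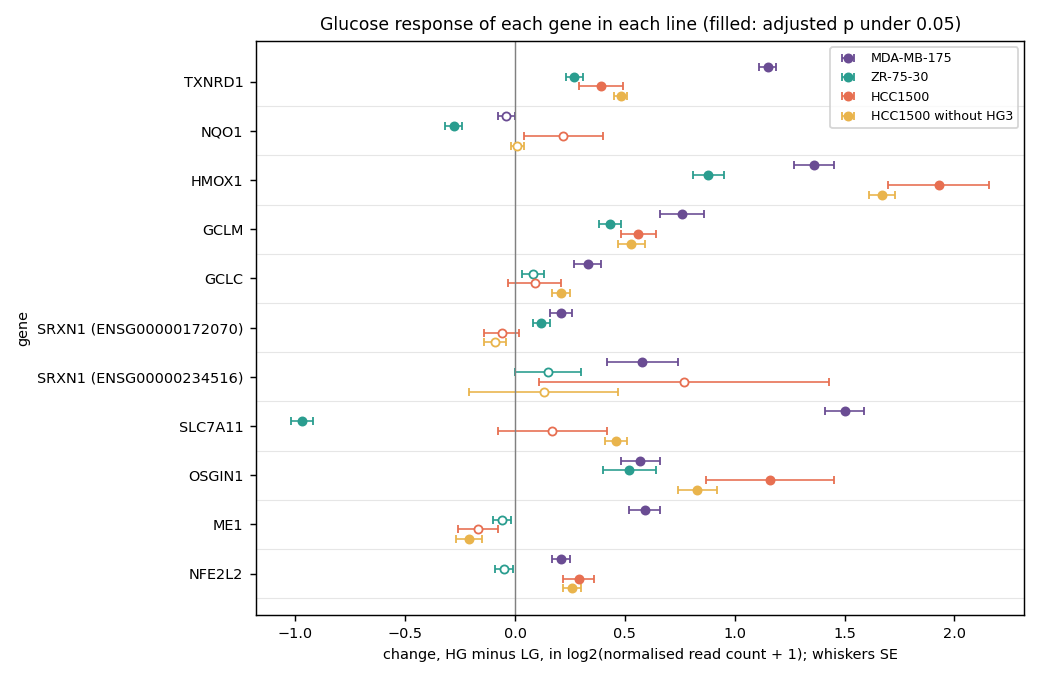
Change from LG to HG in log2(normalised read count + 1) (x axis, whiskers SE) for each table row (y axis) in each line and in HCC1500 without HG replicate 3, with filled points for an adjusted p under 0.05. HMOX1 lies at 0.88 or higher in every line, and SLC7A11 spans -0.97 in ZR-75-30 to 1.5 in MDA-MB-175.

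On the deposited scale, the LG and HG values did not overlap for 9 of the 11 rows in MDA-MB-175 cells. The count was 7 in ZR-75-30 cells (5 higher and 2 lower) and 6 in HCC1500 (5 higher and 1 lower). Over all tested genes the share without overlap was 26.6% in MDA-MB-175 cells, 42.0% in ZR-75-30 cells and 32.4% in HCC1500. Without replicate 3 it was 8 rows (7 higher and 1 lower) in HCC1500, and 58.1% of all genes. In HCC1500 without that culture, rescaling by median of ratios moved the median of all genes from -0.12 to -0.01, as that scaling centres the median by design. Whether the deposited scale leaned downward or more genes fell was not tested. The share of calls that were higher went from 35.7% to 50.5% with that rescaling, and from 36.4% to 48.9% with all HCC1500 samples. Relative to that median the changes without replicate 3 were 0.60 for TXNRD1, 1.80 for HMOX1, 0.65 for GCLM, 0.59 for SLC7A11 and 0.96 for OSGIN1 as deposited. ME1 lost its call under that rescaling (-0.09) and NQO1 gained one (0.13), while the main SRXN1 row turned from -0.09 to 0.03, called under neither.

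**Figure D3:**
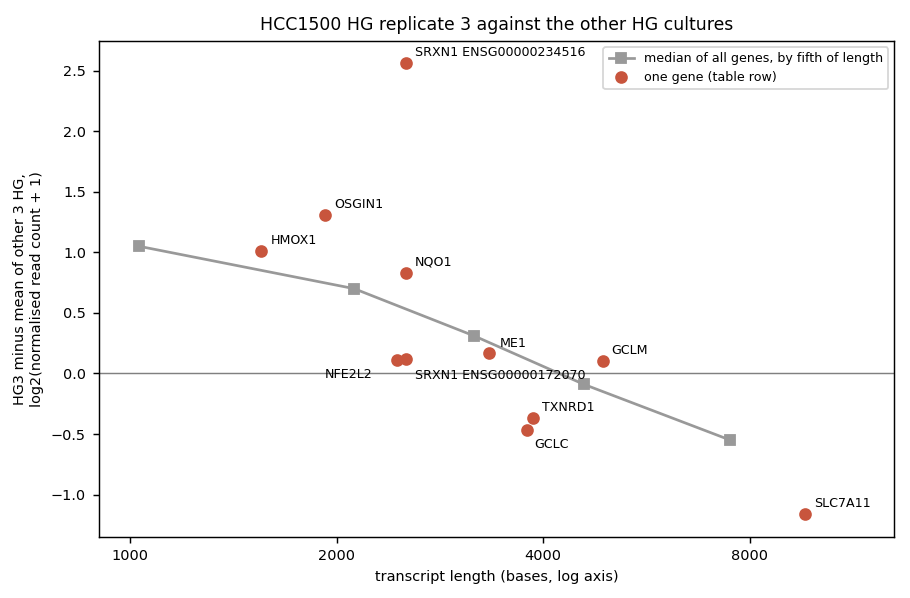
HCC1500 HG replicate 3 minus the mean of the other 3 HG cultures in log2(normalised read count + 1) (y axis) against transcript length in bases (x axis, log axis), for the 11 rows as points and for all genes at a mean of 10 or more as the median in each of 5 length classes of about equal size (squares). The medians run from 1.05 at 1030 bases to -0.55 at 7493 bases, and SLC7A11 lies at -1.16.

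Replicate 3 set 7 rows apart in HCC1500, in both directions. The length of the MANE transcript was 1554 bases for HMOX1, 1922 for OSGIN1 and 2521 for NQO1, and replicate 3 read these 1.01, 1.31 and 0.83 log2 units above the mean of the other 3 HG cultures. The weak SRXN1 row was 2.56 above it. It read TXNRD1 (3860 bases) at -0.37, GCLC (3785 bases) at -0.47 and SLC7A11 (9645 bases) at -1.16 relative to the same mean. GCLM, ME1, NFE2L2 and the main SRXN1 row lay between 0.10 and 0.17. When all genes at a mean of 10 or more were divided into 5 length classes, the median of this difference was 1.05 in the shortest class and -0.55 in the longest.

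The response to glucose differed between lines for 6 of the 11 rows, against 29.3% of all tested genes, in a fit over all 24 samples that gives a description here because the rule used these contrasts. These were TXNRD1, HMOX1, the main SRXN1 row, SLC7A11, ME1 and NFE2L2. The log2 change of TXNRD1 was smaller by 0.88 in ZR-75-30 cells and by 0.77 in HCC1500 than in MDA-MB-175 cells. For SLC7A11 the difference from MDA-MB-175 was -2.47 in ZR-75-30 cells and -1.33 in HCC1500. ME1 differed by -0.65 and -0.76 in the same order. HMOX1 changed by 1.04 more in HCC1500 than in ZR-75-30 cells. Without HG replicate 3 the HCC1500 differences became -0.68 for TXNRD1, -1.04 for SLC7A11, -0.80 for ME1 and 0.79 for HMOX1, and all 6 rows were still called. GCLM, GCLC and NQO1 joined these 6 when HG replicate 3 was left out, and OSGIN1 and the weak SRXN1 row did not.

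Levels at LG differed between lines for all 11 rows, as they did for 92.6% of all tested genes. As deposited, ZR-75-30 had the highest LG mean of TXNRD1, HMOX1, GCLM, GCLC, both SRXN1 rows, SLC7A11 and ME1. MDA-MB-175 had the highest of NQO1 and NFE2L2. LG column totals ran from 7225346 to 7323715 in ZR-75-30 cells and from 5639413 to 5716906 in HCC1500. The order of close means therefore depends on the deposited scale, as for TXNRD1 (1046 in ZR-75-30 and 958 in HCC1500) and HMOX1 (142 and 116). The widest contrast was in ME1, 2004 ± 44.5 in ZR-75-30 cells against 260 ± 8.22 in HCC1500 and 97.9 ± 2.19 in MDA-MB-175 cells (SD, n = 4), a ratio of 20.5 from highest to lowest. Ratios for the rest ran from 1.5 for NFE2L2 to 10.7 for the weak SRXN1 row. Neighbours in the order of lines overlapped for OSGIN1 alone, between HCC1500 and MDA-MB-175, each with a mean of 107. Per kilobase of transcript, the LG mean of NQO1 was 4890 in MDA-MB-175 cells, 1981 in ZR-75-30 cells and 1058 in HCC1500, above every other row in each line. SLC7A11 was the lowest per kilobase among the rows of MDA-MB-175 at LG, at 9.52, and TXNRD1 stood at 153, 271 and 248 in MDA-MB-175 cells, ZR-75-30 cells and HCC1500 cells, respectively.

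Around NRF2, the small MAF genes and the autophagy receptor gene SQSTM1 rose with glucose in every line, while KEAP1 and CUL3 of its degradation machinery were not called with all samples. Of 12 regulator and partner genes, 4 were called higher and 1 lower in MDA-MB-175 cells, 6 and 1 in ZR-75-30 cells, and 5 and 0 of 11 tested in HCC1500 (6 and 1 without replicate 3, 7 and 0 when the rest were also rescaled by median of ratios). Their median change was 0.09, 0.38 and 0.30, and 0.31 in HCC1500 without replicate 3, beside -0.02, 0.01, -0.06 and -0.12 over all genes. Without replicate 3, 20.9% of all genes were called higher and 37.7% lower in HCC1500, and 28.7% and 28.2% after that rescaling. With all samples, the shares of all genes called were those given above for the set. In MDA-MB-175 cells MAFF measured 170 ± 12.5 at LG and 399 ± 30.5 at HG (SD, n = 4), and the change of 1.23 ± 0.07 log2 units (SE) had a limma adjusted p = 2.6e-09. It rose by 1.69 ± 0.05 in ZR-75-30 cells (adjusted p = 6.7e-15) and by 1.5 ± 0.23 in HCC1500 (adjusted p = 0.00285). MAFG rose by 0.56, 0.30 and 0.92 (limma adjusted p = 1.8e-05, 0.000321 and 9.3e-05) and MAFK by 0.47, 0.46 and 0.50 (0.000152, 6.8e-06 and 0.0366) in MDA-MB-175 cells, ZR-75-30 cells and HCC1500 cells, respectively. SQSTM1, whose protein can hold KEAP1 away from NRF2 and which is itself a target, rose by 0.82, 0.70 and 0.98 in the same order (limma adjusted p = 6.1e-09, 3.2e-10 and 0.00521). Without replicate 3 the HCC1500 changes were 1.32 for MAFF, 0.90 for MAFG, 0.36 for MAFK and 0.79 for SQSTM1, and all 4 calls held.

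KEAP1 had log2 changes of -0.05, -0.06 and 0.10 (limma adjusted p = 0.539, 0.394 and 0.807) in MDA-MB-175 cells, ZR-75-30 cells and HCC1500 cells, respectively. Without replicate 3 it fell by 0.16 on the log2 scale in HCC1500 (adjusted p = 0.00736), a call that was lost when the rest were rescaled by median of ratios (-0.04). CUL3, the ubiquitin ligase scaffold, changed by -0.04, 0.01 and 0.09 (0.537, 0.914 and 0.402), and by 0.07 in HCC1500 without replicate 3 (0.0791). BACH1, the repressor, rose by 0.30 in ZR-75-30 cells (adjusted p = 0.0174) and, without replicate 3, by 0.63 in HCC1500 (6.2e-07), where it was 0.41 with it (0.202). Its change in MDA-MB-175 cells was 0.20 (adjusted p = 0.143). NFE2L1, a relative of NFE2L2, rose by 0.48 in ZR-75-30 cells (4.1e-08) and 0.30 in HCC1500 (0.0162, 0.31 without replicate 3, not called after rescaling to CPM) and changed by 0.08 in MDA-MB-175 cells (0.217). BACH2 fell by 0.46 on the log2 scale in MDA-MB-175 cells (limma adjusted p = 0.0482) and BTRC by 0.16 in ZR-75-30 cells (0.0287). The BACH2 call was lost after rescaling by median of ratios.

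**Figure D4:**
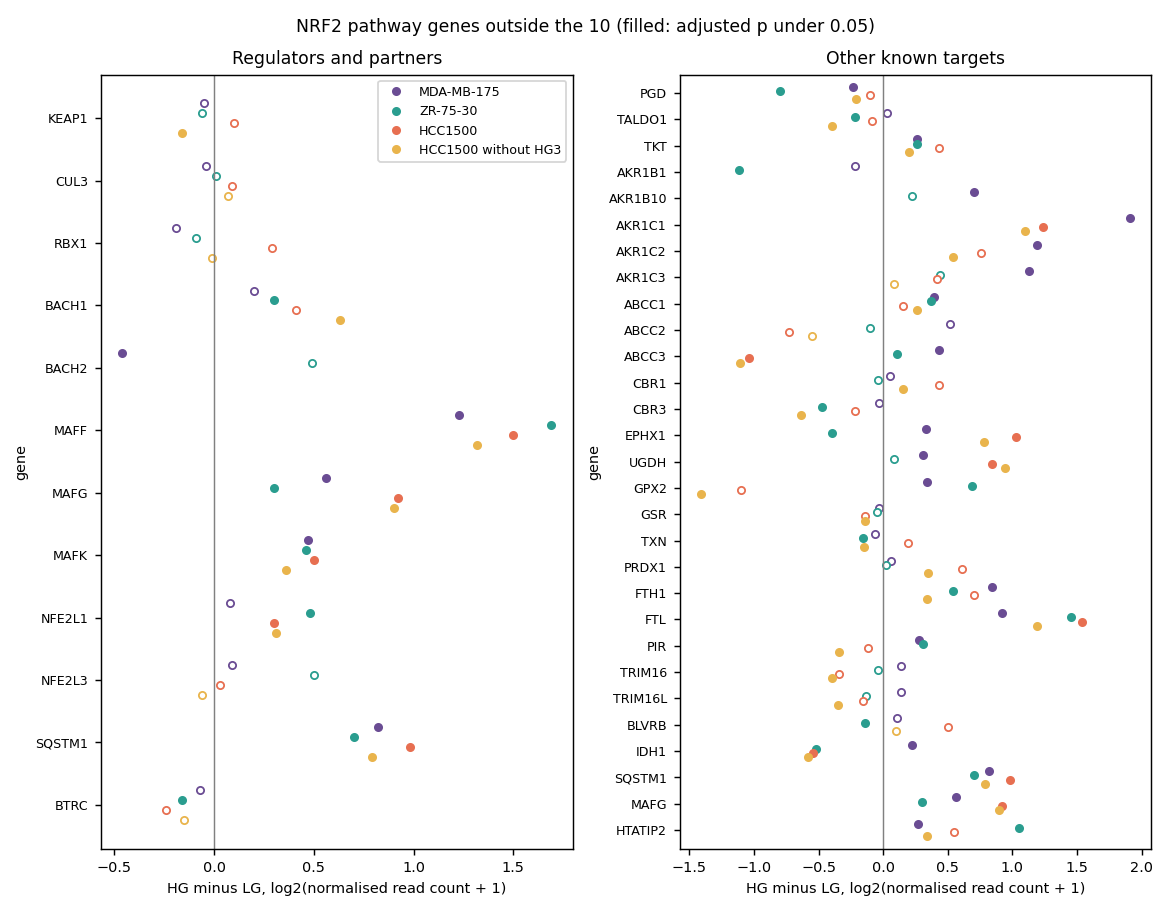
Change from LG to HG in log2(normalised read count + 1) (x axis) for 12 NRF2 regulators and partners and 29 other known NRF2 targets (y axes), in the 3 lines and in HCC1500 without HG replicate 3, filled where the adjusted p was under 0.05. MAFF, MAFG, MAFK and SQSTM1 are filled and above 0 in every line, whereas IDH1 is above 0 in MDA-MB-175 and below 0 in ZR-75-30.

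Among 30 other known NRF2 targets, nearly all called genes rose in MDA-MB-175 cells. In ZR-75-30 cells rises and falls were mixed, as they were over all tested genes there (23.4% called higher and 22.7% lower). In MDA-MB-175 18 were called higher and 1 lower, in ZR-75-30 cells 10 and 9 of 28 tested, and in HCC1500 6 and 2 of 28 tested (13 and 12 without replicate 3, 14 and 8 after rescaling the rest). Their median change was 0.30, -0.01 and 0.31, and 0.09 in HCC1500 without replicate 3, beside -0.02, 0.01, -0.06 and -0.12 over all genes. Over all tested genes, the shares called higher and lower were 11.9% and 13.7% in MDA-MB-175 cells and 7.46% and 13.0% in HCC1500. Without replicate 3 they were 20.9% and 37.7% in HCC1500, and 28.7% and 28.2% after rescaling the rest. FTL, SQSTM1 and MAFG were called higher in all 3 lines, and SQSTM1 and MAFG are also counted among the regulators. FTL, the ferritin light chain that stores iron, rose by 0.92, 1.45 and 1.54 in MDA-MB-175 cells, ZR-75-30 cells and HCC1500 cells, respectively (limma adjusted p = 1.4e-08, 9.8e-15 and 0.00819), and by 1.19 in HCC1500 without replicate 3. FTH1, the heavy chain, rose by 0.84 and 0.54 in MDA-MB-175 cells and ZR-75-30 (3.1e-10 and 3.1e-08) and was 0.70 in HCC1500 (0.153), or 0.34 without replicate 3 (1.7e-09).

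The aldo-keto reductases AKR1C1 and AKR1C2 rose by 1.91 and 1.19 in MDA-MB-175 cells (limma adjusted p = 6.8e-07 and 1.9e-10), as close paralogs whose reads may be shared. AKR1C1 also rose by 1.24 in HCC1500, from 5.59 ± 1.97 to 14.4 ± 3.92 (SD, n = 4, limma adjusted p = 0.0173). Neither was tested in ZR-75-30 cells. PGD, an NADPH-forming enzyme, fell in MDA-MB-175 cells by 0.23 (0.000979) and in ZR-75-30 cells by 0.80 (1.5e-11). IDH1 rose in MDA-MB-175 cells by 0.22 (0.000664) and fell by 0.52 in ZR-75-30 cells (1.7e-09) and 0.54 in HCC1500 (0.00161). HTATIP2 rose by 1.05 in ZR-75-30 cells (2.1e-11). AKR1B1 fell by 1.12 in ZR-75-30 cells (0.00123) and ABCC3, an efflux transporter, by 1.04 in HCC1500 (0.0137), both at levels under 20. ABCC3 was far more abundant in the other lines. It rose by 0.43 in MDA-MB-175 cells, from 2639 ± 130 to 3551 ± 43.3 (SD, n = 4, limma adjusted p = 1.0e-06). In ZR-75-30 cells it rose by 0.11 (0.0463), a call that was lost after rescaling to CPM (0.07). Without replicate 3 the HCC1500 changes of AKR1C1, IDH1 and ABCC3 were 1.10, -0.58 and -1.11, all called.

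In the thioredoxin system, TXNRD1 was called higher in every line while its substrate TXN and its relatives TXNRD2 and TXNRD3 were not called higher. TXN, the thioredoxin that TXNRD1 reduces, changed by -0.06 in MDA-MB-175 cells (limma adjusted p = 0.458), -0.16 in ZR-75-30 cells (0.00785) and 0.19 in HCC1500 (0.697), or -0.15 without replicate 3 (0.00372), which became -0.03 and was not called when the rest were rescaled by median of ratios. TXNRD2, the mitochondrial reductase, changed by 0.05, 0.23 and -0.17 (0.601, 0.0614 and 0.755) in the same order of lines, and TXNRD3 by 0.01, 0.22 and -0.48 (0.966, 0.169 and 0.162). Without replicate 3 both fell in HCC1500, by 0.52 (2.1e-05) and 0.66 (0.00134). TXNIP, the glucose-responsive inhibitor of thioredoxin, rose by 0.39, 0.76 and 1.02 (limma adjusted p = 1.1e-06, 3.6e-11 and 7.5e-05), and by 0.99 in HCC1500 without replicate 3. Of the 12 genes of this list, 2 were called higher and 3 lower in MDA-MB-175 cells, 3 and 4 in ZR-75-30 cells, and 1 and 0 of 11 tested in HCC1500 (2 and 7 without replicate 3, 4 and 5 after rescaling the rest). The shares over all tested genes are those given for the other NRF2 targets. PRDX3 and PRDX2, peroxiredoxins that remove peroxides, fell by 0.28 and 0.22 in MDA-MB-175 cells (8.0e-05 and 0.00729) and by 0.15 and 0.27 in ZR-75-30 cells (0.00225 and 0.000514). In HCC1500 they changed by -0.29 and -0.16 (0.15 and 0.754), or -0.42 and -0.51 without replicate 3 (8.6e-09 and 2.5e-10). PRDX6 rose by 0.27 in ZR-75-30 cells (1.3e-05) and fell by 0.18 in MDA-MB-175 cells (0.00423).

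In the glutathione system, the heavy chain partner of SLC7A11 rose in every line, also where SLC7A11 fell. In ZR-75-30 cells SLC3A2 measured 969 ± 43.3 at LG and 1927 ± 132 at HG (SD, n = 4), and the change of 0.99 ± 0.05 log2 units (SE) had a limma adjusted p = 1.2e-11. It rose by 0.52 in MDA-MB-175 cells (2.3e-06) and 1.54 in HCC1500 (0.00272), or 1.27 without replicate 3 (1.5e-16). GSS, which completes glutathione synthesis, fell by 0.19 in MDA-MB-175 cells (0.0168), by 0.50 in ZR-75-30 cells (2.7e-06) and, without replicate 3, by 0.61 in HCC1500 (5.5e-10), where its change with replicate 3 was -0.41 (0.165). GSR, the glutathione reductase, changed by -0.03, -0.05 and -0.14 in MDA-MB-175 cells, ZR-75-30 cells and HCC1500 cells, respectively (0.578, 0.285 and 0.186), and by -0.14 in HCC1500 without replicate 3 (0.00321), where the change was -0.02 and not called after rescaling by median of ratios. GLRX, a glutaredoxin, rose by 1.76 in MDA-MB-175 cells (4.7e-10) and changed by -0.03 in ZR-75-30 cells (0.737). In HCC1500 its change was -0.49 (0.215), or -0.77 and called without replicate 3 (6.9e-07). CHAC1, which degrades glutathione, rose by 0.86 in MDA-MB-175 cells (0.000195) and by 0.74 in HCC1500 (0.0499), or 0.51 without replicate 3 (0.00137). GGCT fell by 0.42 in MDA-MB-175 cells (2.4e-06) and 0.58 in ZR-75-30 cells (3.0e-09). GPX3 rose by 1.29 (3.2e-09) and CHAC2 fell by 1.28 (2.8e-05) in ZR-75-30 cells. MGST3 fell by 0.18 in MDA-MB-175 cells (0.016) and rose by 0.20 in ZR-75-30 cells (0.000462). In HCC1500 MGST3 changed by -0.26 (0.531), or -0.55 without replicate 3 (1.9e-08). Of 21 genes listed, 6 were called higher and 3 lower in MDA-MB-175 cells and 7 and 4 in ZR-75-30 cells, with 19 tested in each, and 2 and 1 of 18 in HCC1500 (2 and 12 without replicate 3, against 37.7% of all genes called lower there, and 2 and 7 after rescaling the rest). The remaining shares over all tested genes are those given for the other NRF2 targets.

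Calls in the remaining lists around the set stand beside the shares called higher and lower over all tested genes. These were 11.9% and 13.7% in MDA-MB-175 cells, and 23.4% and 22.7% in ZR-75-30 cells. In HCC1500 they were 7.46% and 13.0%, or 20.9% and 37.7% without replicate 3 and 28.7% and 28.2% after rescaling the rest. Nothing is read from the number of calls. Of 14 NADPH supply genes, 4 were called higher and 5 lower in MDA-MB-175 cells, 4 and 4 in ZR-75-30 cells, and 0 and 4 in HCC1500 (1 and 9 without replicate 3, 3 and 8 after rescaling the rest). Of 6 heme breakdown and iron genes the counts were 3 and 1, 3 and 2, and 1 and 0 (2 and 3 without replicate 3, 3 and 1 after rescaling the rest, where HMOX2 and SLC40A1 were no longer called). Of 5 superoxide and peroxide genes none was called higher with all samples, and 1 was lower in each line, CAT by 0.19 in MDA-MB-175 cells (limma adjusted p = 0.0046) and 0.59 in HCC1500 (0.00099) and SOD3 by 1.01 in ZR-75-30 cells (6.3e-10). Without replicate 3 the counts for these genes in HCC1500 were 1 and 3 of 4 tested (1 and 2 after rescaling the rest), with CAT at -0.61.

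SLC7A11 is also a target of ATF4, the amino acid stress factor. TIPARP and CYP1A1 respond to the aryl hydrocarbon receptor, which shares targets with NRF2. The ATF4 list held 14 genes, ATF4 itself among them. Of these, 10 were called higher and 0 lower in MDA-MB-175 cells, 5 and 5 of 13 tested in ZR-75-30 cells, and 4 and 1 in HCC1500 (8 and 4 without replicate 3, 10 and 3 after rescaling the rest). ATF4 rose by 0.25 in MDA-MB-175 cells and 0.14 in ZR-75-30 cells (limma adjusted p = 0.000947 and 0.00347). In HCC1500 it changed by 0.27 (0.438), or 0.02 without replicate 3 (0.663). ATF3 rose by 1.63, 3.32 and 1.0 (limma adjusted p = 3.5e-08, 2.4e-07 and 0.00208) and DDIT3 by 1.11, 1.19 and 1.04 (4.7e-07, 1.5e-09 and 0.0289) in MDA-MB-175 cells, ZR-75-30 cells and HCC1500 cells, respectively. PHGDH, an enzyme of serine synthesis, fell by 1.28 in ZR-75-30 cells (1.3e-09). Its change was 0.16 in MDA-MB-175 cells (0.087) and -0.07 in HCC1500 (0.883), or -0.35 without replicate 3 (2.0e-07). Of 6 aryl hydrocarbon receptor targets, 3 of 5 tested were called higher in MDA-MB-175 cells, 4 of 5 in ZR-75-30 cells and 1 of 6 in HCC1500 (2, with 1 lower, without replicate 3, and 3 and 1 after rescaling the rest). For both lists the shares over all tested genes are those given for the other NRF2 targets. CYP1A1 rose by 1.84, 2.99 and 2.0 (1.1e-12, 1.9e-07 and 0.000123) in the same order. Without replicate 3 the HCC1500 changes of ATF3, DDIT3 and CYP1A1 were 0.88, 0.72 and 1.91, all called. Whether either response has a part in the changes of the set was not tested.

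Over the 24 samples, with each line's mean subtracted, the genes most like TXNRD1 were SOX4 (Pearson r = 0.949), RDH10 (0.940) and C14orf132 (0.939), out of 13310 genes at a mean of 10 or more. Without HCC1500 HG replicate 3 they were RDH10 (0.975), GPRC5A (0.972) and TUBA4A (0.969) over 23 samples. RDH10 stood in both lists. For NQO1 they were H2AFZ (0.974), POLR2G (0.972) and PSMA5 (0.970), and without that culture XPO5 (0.940), EGLN3 (0.934) and RBM8A (0.931), so that none of the 3 was shared. Within the set GCLM (0.88), GCLC (0.83) and HMOX1 (0.73) were most like TXNRD1 and NQO1 was least like it (-0.19). These coefficients describe samples that share libraries, depth and the glucose contrast.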

How the data were processed

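RNA of 24 cultures was sequenced on an Illumina HiSeq. Per the labels' processing notes the authors used edgeR and hg38, whereas the study's methods name Trimmomatic, TopHat, hg19 and Ensembl v70. Those methods also describe CPM with edgeR's TMM factors, but the deposited columns sum to between 5559394 and 7594840 and not to the CPM total, so the factor behind these values is not settled. The counter and the strand setting were not given in the sources used here. The deposited signal holds whole reads scaled by a factor specific to each sample (for 100% of values, within 0.01 of a whole number), and 3 reads correspond to 0.953 to 2.29.

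Genes that reached 0.5 in 4 or more of the fitted samples were tested with limma 3.58.1 (R 4.3.3, intensity trend) on log2(value + 1), which understates changes of weak genes, within each line and over all 24 samples. Calls took a Benjamini-Hochberg adjusted p under 0.05 over all tested genes. The plan foresaw this test, and edgeR 4.0.16 and DESeq2 1.42.0 on the recovered reads were alternatives. The code was tested on simulated data.

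The set and all lists were chosen with earlier results of these data known. Named besides the set were a fixed group of pathway genes, the 2 largest non-overlapping called rises and falls of each list and line, and the 3 genes most like TXNRD1 and NQO1. 1 gene counted in the lists is not reported here by name. Of the list symbols, 5 of 12 markers of other cell types were not matched. GENCODE release 44 supplied GRCh37 positions, 1-based. Promoter sequences are from RefSeq on GRCh38.p14, and the builds were not mixed.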

Additional observations from a re-analysis of the deposited data

Results flagged for a closer look

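HCC1500 HG replicate 3 lay far from its 3 companions in 7 rows. It read 1034 for TXNRD1, 372 for GCLC and 120 for SLC7A11, below the others, and 4753 for NQO1, 749 for HMOX1, 475 for OSGIN1 and 98.8 for the weak SRXN1 row, above them. GCLM in ZR-75-30 LG replicate 2 was high at 615, where the other 3 LG cultures ran from 545 to 546. In all, 8 of 66 groups had a sample this far out, where chance gives about 5% of independent groups. The rows share libraries and 7 of the 8 were the same culture. The groups are therefore not independent, and nothing is read from the count.

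The glucose response differed between lines for 6 rows in the fit over all samples. The largest differences in log2 change were -0.88 for TXNRD1 and -2.47 for SLC7A11 (ZR-75-30 minus MDA-MB-175), -0.76 for ME1 and -0.28 for the main SRXN1 row (HCC1500 minus MDA-MB-175), and 1.04 for HMOX1 and 0.33 for NFE2L2 (HCC1500 minus ZR-75-30). Without HCC1500 HG replicate 3 the last 4 were -0.80, -0.31, 0.79 and 0.31. The set was drawn up with these contrasts known.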

How the results depend on the processing

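In MDA-MB-175 and ZR-75-30 the counts of called rows (10 and 7) and of other targets (19 each) stayed within 1.5 times under every alternative, although in ZR-75-30 after rescaling to CPM the call of the main SRXN1 row was lost and ME1 was called lower. HCC1500 did not. Its 5 called rows became 3 after rescaling to CPM and 3 with the replicate number as a block, and between 2 and 8 when 1 culture was left out, 8 of them without HG replicate 3. That culture left out and the rest rescaled by median of ratios, an alternative chosen after seeing the data, also gave 8. The 8 other targets called in HCC1500 became 14 after rescaling to CPM, 14 with edgeR and 16 with DESeq2, between 7 and 25 when 1 culture was left out, and 22 with that added alternative. The cause was not tested.

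The rows differing in response between lines (6) and at LG (11) stayed within 1.5 times, except that leaving out 1 culture gave between 5 and 9 rows for the response. Same-numbered LG and HG cultures correlated at -0.01 to 0.11 in MDA-MB-175, -0.01 to 0.05 in ZR-75-30 and -0.04 to 0.05 in HCC1500. These values show no pairing by number, but they cannot exclude that same-numbered cultures were set up together. Each culture's deviation was closest to its own number in 1, 1 and 2 of 4 pairs. With the block, 10 rows were called in MDA-MB-175 and 7 in ZR-75-30, and in HCC1500 the calls of TXNRD1 and NFE2L2 were lost. No alternative reversed a called change of the set. Among the other genes, leaving out HG replicate 3 gave calls for MGST1 (-0.11) and FOXA1 (-0.10) that became 0.00 and 0.02, uncalled, when the rest were rescaled by median of ratios.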
